A study of Mus musculus with 96 samples.

Results

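Whole-genome copy ratios of 12 single nuclei from the 4N gate are described here, divided by how finely their copy levels were stepped. The nuclei came from KPC1199EGFP, a mouse pancreatic cancer line of C57BL\6 background that expresses a green fluorescent protein, grown without treatment and taken at passage 9. Trypsinised cells were put in a buffer with DAPI, a DNA dye, and sorted by DNA content, and the genome of each nucleus was amplified and sequenced. The series holds 96 libraries in all: 47 nuclei sorted as 2N, 35 as 2N+ and these 12 as 4N, and 1 bulk library each of the 2N and 2N+ gates. All groups share the line, the passage and the lack of treatment. The sources used here do not give the limits of the gates or any DNA content per nucleus.

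The division rests on a multiplier. For each nucleus, the deposited ratios of 4636 autosomal bins were multiplied by every value from 1.5 to 6 in steps of 0.05, and the value that brought them nearest to whole numbers was kept. A nucleus was called fine where this multiplier was above 3 and coarse where it was 3 or below. This gave 4 fine nuclei (numbers 2, 3, 4 and 5) and 8 coarse nuclei (1 and 6 to 12). The share of fine nuclei was 33.3% of 12, with an exact Clopper-Pearson 95% interval of 9.92 to 65.1% that covers counting error only. The same search put 0 of 82 nuclei of the 2N and 2N+ gates above 3, which allows a share of up to 3.66%, and their multipliers ran from 2.15 to 2.70. The groups were made from the autosomal values, so all autosomal values below are a description. All nuclei came from 1 culture and are not replicates of a condition, so no test was run between the groups.

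As background, a cell that has copied its DNA before division holds every chromosome at an even number of copies, with the same ratios between chromosomes as before replication. A whole-genome doubling leaves the same even numbers at first. A chromosome gained or lost after the doubling is one way to an odd number between the even ones. Because sequencing gives only ratios within a library, a set of even copy numbers cannot be told from the same set divided by 2, and the finer step can be seen only where odd numbers are present. Loss and gain of whole chromosomes after doubling is a common feature of pancreatic cancer genomes.

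The multipliers fell into 3 sets. Nuclei 3, 4 and 5 had multipliers of 4.65, 4.65 and 4.70. Nucleus 2, the fine nucleus closest to the border, had 3.45. The coarse nuclei ran from 2.20 through a median of 2.425 to 2.65, so that nucleus 8, at 2.65, was the coarse nucleus closest to the border. The gap between both groups was thus wide, but nucleus 2 stood between the coarse nuclei and the other fine ones.

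How well the multiplier brought bins to whole copies differed more within the groups than between them. The root mean square (RMS) distance of autosomal bins to whole copies was 0.206 copies in nucleus 2, 0.120 in nucleus 3, 0.0967 in nucleus 4 and 0.107 in nucleus 5. In the coarse nuclei it ran from 0.0816 through a median of 0.101 to 0.197 copies. The median of the fine nuclei was 0.113, or 0.107 without nucleus 2, and that of the coarse nuclei without nuclei 1 and 12 was 0.0911. The highest coarse values were those of nuclei 1 (0.197) and 12 (0.182), and the other 6 coarse nuclei lay between 0.0816 and 0.129. Single nuclei of the 2N gate had a median of 0.0690 copies with an SD of 0.0216 over 47, and those of the 2N+ gate 0.0770 with an SD of 0.0298 over 35.

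**Figure D1:**
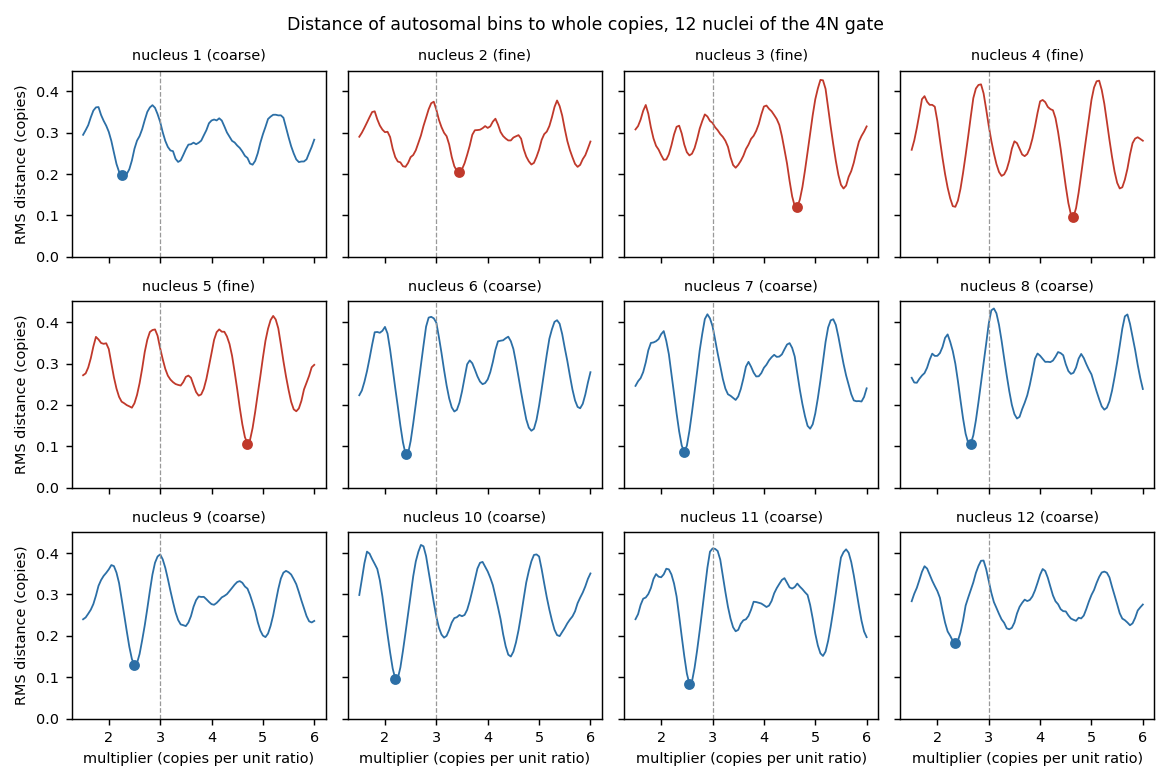
RMS distance of autosomal bins to whole copies (y axis, in copies) against the multiplier tried (x axis) for each of the 12 nuclei, with fine nuclei in red, coarse nuclei in blue, a dot at the lowest point and a dashed line at the border of 3. Nuclei 3 and 5 are lowest at 4.65 and 4.70, nucleus 4 has minima of 0.121 at 2.35 and 0.0967 at 4.65, and the lowest points of nuclei 1, 2 and 12 are 0.197, 0.206 and 0.182.

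As a group, 3 libraries stood apart from the rest by this measure: nuclei 1 and 12 (coarse) and nucleus 2 (fine). Of their 19 autosomes, 7, 4 and 8 lay more than 0.2 copies from a whole number. No coarse nucleus other than these had more than 1 such autosome, and nuclei 3, 4 and 5 had 0, 1 and 2. In nucleus 2 the second minimum, at a multiplier of 2.40, had an RMS distance of 0.218 copies against 0.206 at 3.45, so neither scale gave whole steps. The data therefore go against the name fine for nucleus 2, and the main group values are given with and without it, and for the coarse group with and without nuclei 1 and 12.

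These 3 libraries were also close to the profile of the bulk library of the 2N gate, which averages many nuclei. With each profile divided by its autosomal mean, their RMS distance over autosomal bins to the 2N bulk library was 0.0445 (nucleus 1), 0.0661 (nucleus 2) and 0.0529 (nucleus 12). The 47 single nuclei of the 2N gate ran from 0.0728 through a median of 0.105 to 0.188, so all 3 lay nearer to the bulk profile than any of them. Nuclei 4 and 5 did so as well, at 0.0683 and 0.0654, which makes 5 of the 12 nuclei of the 4N gate, 3 of them fine. Nucleus 3 lay at 0.182 and the other 6 coarse nuclei between 0.105 and 0.207. For comparison, the bulk library itself fitted whole copies poorly, with an RMS distance of 0.175 copies and 5 autosomes more than 0.2 copies from a whole number. Nucleus 2 was about as near to the 2N+ bulk library, at 0.0698. Chromosome Y was high in the same 3 libraries: its ratio to chromosome 4 was 0.0825, 0.0716 and 0.0271 in nuclei 1, 2 and 12, 0.0695 in the 2N bulk library, and between 0.00401 and 0.0110 in the other 9 nuclei. Single nuclei ran from 0.00384 through a median of 0.0113 to 0.899 in the 2N gate. In the 2N+ gate they ran from 0.0153 through a median of 0.0319 to 1.04, and its bulk library was at 0.238. The 3 libraries thus lay inside both ranges of single nuclei. The part of the likeness to the bulk library in the results below was not tested.

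**Figure D2:**
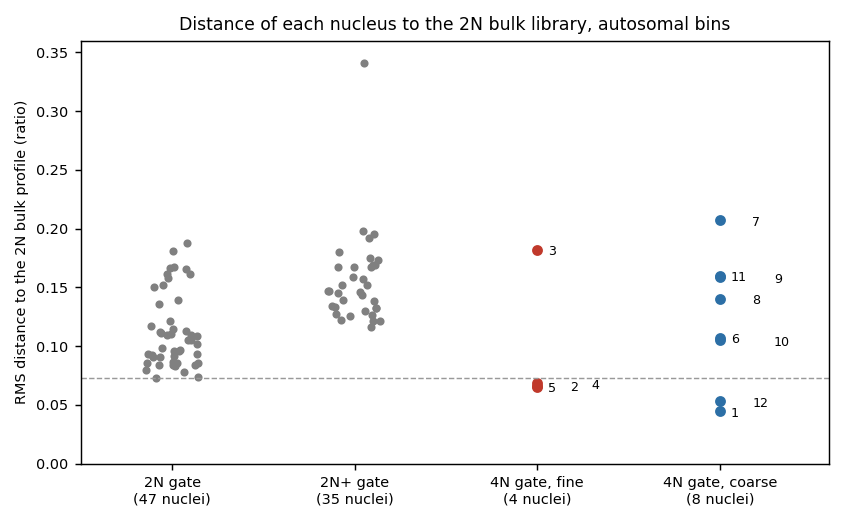
RMS distance over autosomal bins to the 2N bulk library (y axis, in units of ratio) for single nuclei of the 2N and 2N+ gates (grey) and for the fine (red) and coarse (blue) nuclei of the 4N gate, each dot 1 nucleus, with numbers that name the 4N nuclei. The dashed line marks the nearest 2N nucleus at 0.0728, and nuclei 1, 2, 4, 5 and 12 lie under it.

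Nuclei 4 and 5 had most of the genome at 4 and 6 copies, with some chromosomes between. Nucleus 3 had 41.7% of autosomal bins at 4 copies, 31.2% at 5, 12.2% at 7, 9.38% at 6 and 5.07% at 3. The most frequent level was 4 copies, the level of chromosome 4, which carries the tumour suppressor gene Cdkn2a, at 4.03, 4.06 and 3.99 copies in nuclei 3, 4 and 5. Chromosomes 7, 9, 10 and 13 were at 4 in all 3 as well, from 3.98 to 4.16 copies. Chromosomes 8 and 19 were at 6 in all 3, from 5.86 to 5.95 copies. Averaged over autosomal bins, nucleus 3 held 4.89 copies, nucleus 4 held 4.83 and nucleus 5 held 4.86. Divided by 2, these means are 2.45, 2.42 and 2.43, beside 2.49 as the median of 47 nuclei from the 2N gate, with an SD of 0.117. The means of the coarse nuclei ran from 2.31 to 2.75 copies on their own scale and would be 4.63 to 5.51 if every copy number were multiplied by 2.

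The nuclei differed in how much of the genome stood at odd copies, which is what the finer scale rests on. Nucleus 3 had 48.8% of autosomal bins nearest to an odd number, nucleus 5 had 19.1% and nucleus 4 had 6.67%. Nucleus 2 had 59.97%, but 63.1% of its bins were within 0.2 copies of a whole number, against 90.96%, 95.7% and 91.9% in nuclei 3, 4 and 5. The median of the 4 fine nuclei was 33.9%; it fell to 19.1% without nucleus 2 and also without nucleus 3, and was 48.8% without nucleus 4 or without nucleus 5. On their own scale the coarse nuclei had 32.4 to 52.3% of bins at odd copies, mostly chromosomes at 3. Counting only bins within 0.2 copies of an odd number, which are those near a copy number ending in 0.5 once the multiplier is divided by 2, the fine nuclei had 45.4% (nucleus 2), 44.9% (nucleus 3), 4.90% (nucleus 4) and 16.01% (nucleus 5).

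**Figure D3:**
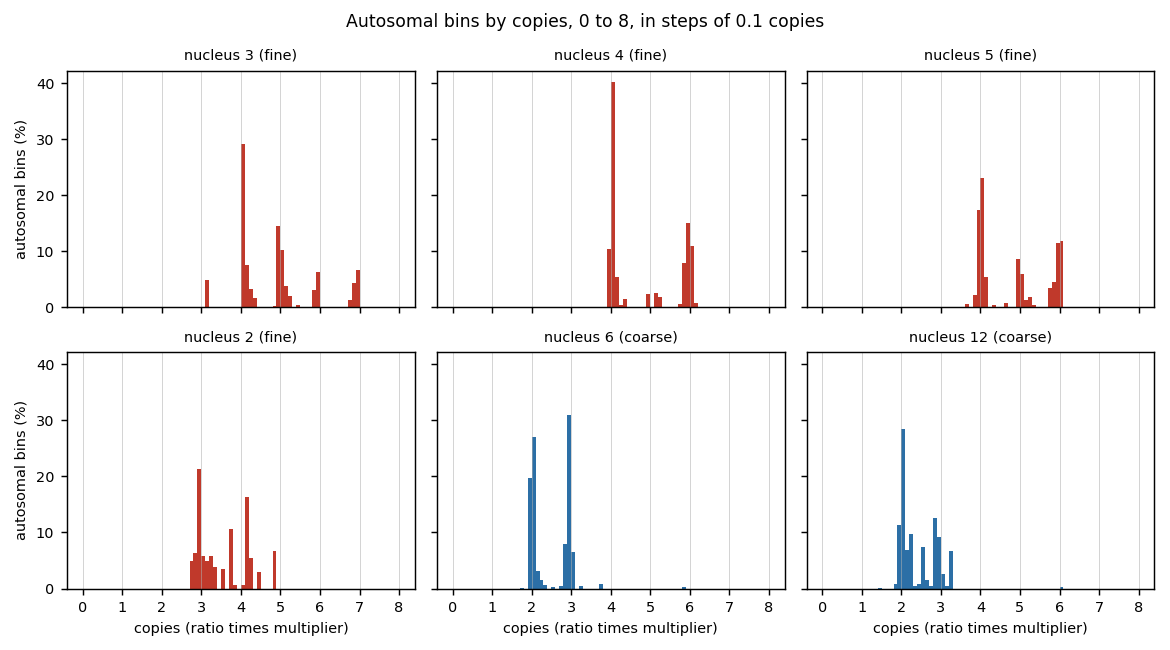
Percent of autosomal bins (y axis) by copies in steps of 0.1 (x axis, 0 to 8 copies) for the 4 fine nuclei in red and coarse nuclei 6 and 12 in blue. Nuclei 3, 4 and 5 have separate peaks at 4, 5 and 6 copies, with 48.8, 6.67 and 19.1% of bins nearest to an odd number, while in nuclei 2 and 12 many bins lie between whole numbers.

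Among nuclei 3, 4 and 5, nucleus 3 had the most autosomes at odd copies. Of its 19 autosomes, 10 were at odd copies and all 19 were within 0.2 copies of a whole number. Chromosomes 1, 2, 6, 11, 12, 16 and 17 were at 5 copies, with values of 5.05, 5.04, 5.10, 4.96, 4.92, 4.99 and 5.15. Chromosome 3 was at 6.98 copies and chromosome 15, which carries the oncogene Myc, at 6.80 copies. Chromosome 14 was at 3.12 copies and was the only autosome of nuclei 3, 4 and 5 with a median nearest to 3. The odd chromosomes of this nucleus thus lay on both sides of the level of 4.

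Nucleus 5 had 4 odd autosomes and nucleus 4 had 1. The first had 5.08 copies of chromosome 1, 4.90 of chromosome 12 and 4.98 of chromosome 18, which carries the tumour suppressor gene Smad4. Its chromosome 2 was at 5.29 copies by the median over bins, off a whole number. In nucleus 4, chromosome 1 at 5.13 copies was the only odd autosome, and the remaining 18 had medians at 4 or 6. Chromosome 1 was therefore at 5 copies in all 3 nuclei, and it is the only chromosome of which this is true.

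The call of nucleus 4 as fine depends on chromosome 1. Without the bins of chromosome 1 its multiplier was 2.30, and with the mean absolute distance in place of the mean squared one it was also 2.30. Its 2 minima were close, 0.121 copies at 2.35 and 0.0967 at 4.65. Nucleus 2 left the fine group when chromosome 1 or chromosome 3 was left out, with multipliers of 2.35 and 2.40. Nuclei 3 and 5 stayed between 4.6 and 4.71 when any autosome was left out and under the other settings of a search that reached above 3, and no coarse nucleus rose above 3 when any autosome was left out.

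Ratios inside a nucleus do not depend on the multiplier and show the same levels. The ratio of chromosome 1 to chromosome 4 was 1.30 in nucleus 2, 1.25 in nucleus 3, 1.26 in nucleus 4 and 1.27 in nucleus 5. In the coarse nuclei it ran from 1.03 through a median of 1.44 to 1.47, with nuclei 1 and 12 at 1.29 and 1.31. Within 0.05 of the values of nuclei 3, 4 and 5 there were 0 of 82 nuclei of the 2N and 2N+ gates, where the medians were 1.46 and 1.48. The 2N bulk library, an average of many nuclei, was at 1.23, and nuclei 4 and 5 were also near it over the whole profile, as given above. The fine nuclei lay inside the range of the coarse ones, since nucleus 10 was at 1.03.

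The other intermediate ratios were also seldom met in the other gates. These counts, and that for chromosome 1 above, follow in part from the grouping. All 82 nuclei had chromosome 4 at 2 copies and multipliers of 2.70 or below, so their whole copies lie at other ratios. Nothing is read from the counts. For 9 of the 10 odd autosomes of nucleus 3, 0 of 82 nuclei had a ratio to chromosome 4 within 0.05 of its value, and for chromosome 2 there was 1. For the 4 odd autosomes of nucleus 5 the count was 0 of 82 each. In the 2N bulk library the ratio of chromosome 18 was 1.21, beside 1.25 in nucleus 5. Divided by 2, the odd copy numbers lie midway between a pair of states, and the frequency of these states in the other gates differed between chromosomes. For chromosome 1, 24 of 82 nuclei were at 2 copies and 57 at 3. For chromosome 18, 27 were at 2 and 51 at 3, and for chromosome 3, 47 were at 3 and 34 at 4. For chromosome 2, odd in nuclei 3 and 5, 21 were at 2 and 44 at 3. For chromosome 16, odd in nucleus 3, 55 were at 2 and 23 at 3. In these cases both neighbouring states were frequent.

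For other odd chromosomes of nucleus 3 a neighbouring state was rare or not seen. Chromosome 14, at 3.12 copies or 1.56 when divided by 2, has 1 and 2 as neighbouring states, and 0 of 82 nuclei had 1 copy of it, which allows a share of up to 3.66%. Chromosome 15, at 3.40 when divided by 2, has 3 and 4, and 1 of 82 nuclei had 4. Chromosome 17, at 2.58 when divided by 2, has 2 and 3, and 1 of 82 nuclei had 2 copies. Each of chromosomes 6 and 11 had 2 copies in 2 of 82 nuclei. A state of 3 copies of chromosome 12 was found in 6 of 82, and this chromosome was near 2.5 when divided by 2 in both nucleus 3 (2.46) and nucleus 5 (2.45).

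The even chromosomes of nuclei 3 and 5 matched sets found in the other gates, and those of nucleus 4 matched at all but 1. Those of nucleus 2 matched at 4 of 8 at most. At its multiplier of 3.45, chromosomes 6, 11 and 17 were at 4 copies, or 2 when divided by 2. In the other gates, 77, 78 and 79 of 82 nuclei had 3 copies of them. The mismatch of nucleus 2 follows from its scale, so nothing is read from it. The 9 even autosomes of nucleus 3, divided by 2, equalled those of 15 of 82 nuclei, with 13 from the 2N and 2 from the 2N+ gate. Its odd autosomes were not compared. Chromosomes 4, 7, 9, 10 and 13, even in nuclei 3, 4 and 5, were each at 2 copies in 81 or 82 of the 82 nuclei. They match almost any nucleus. The 15 even autosomes of nucleus 5 equalled those of 27 nuclei, of which 25 were of the 2N gate. In nucleus 4, 17 of 18 even autosomes were the most that matched, in 23 nuclei, with chromosome 2, 8 or 18 as the one that differed. Of the coarse nuclei, 4 (6, 7, 9 and 10) had all 19 autosomes equal to those of at least 1 nucleus of another gate, and the other 4 matched at 18. For nuclei 1 and 12 these matches rest on rounding values that lay off whole numbers.

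**Figure D4:**
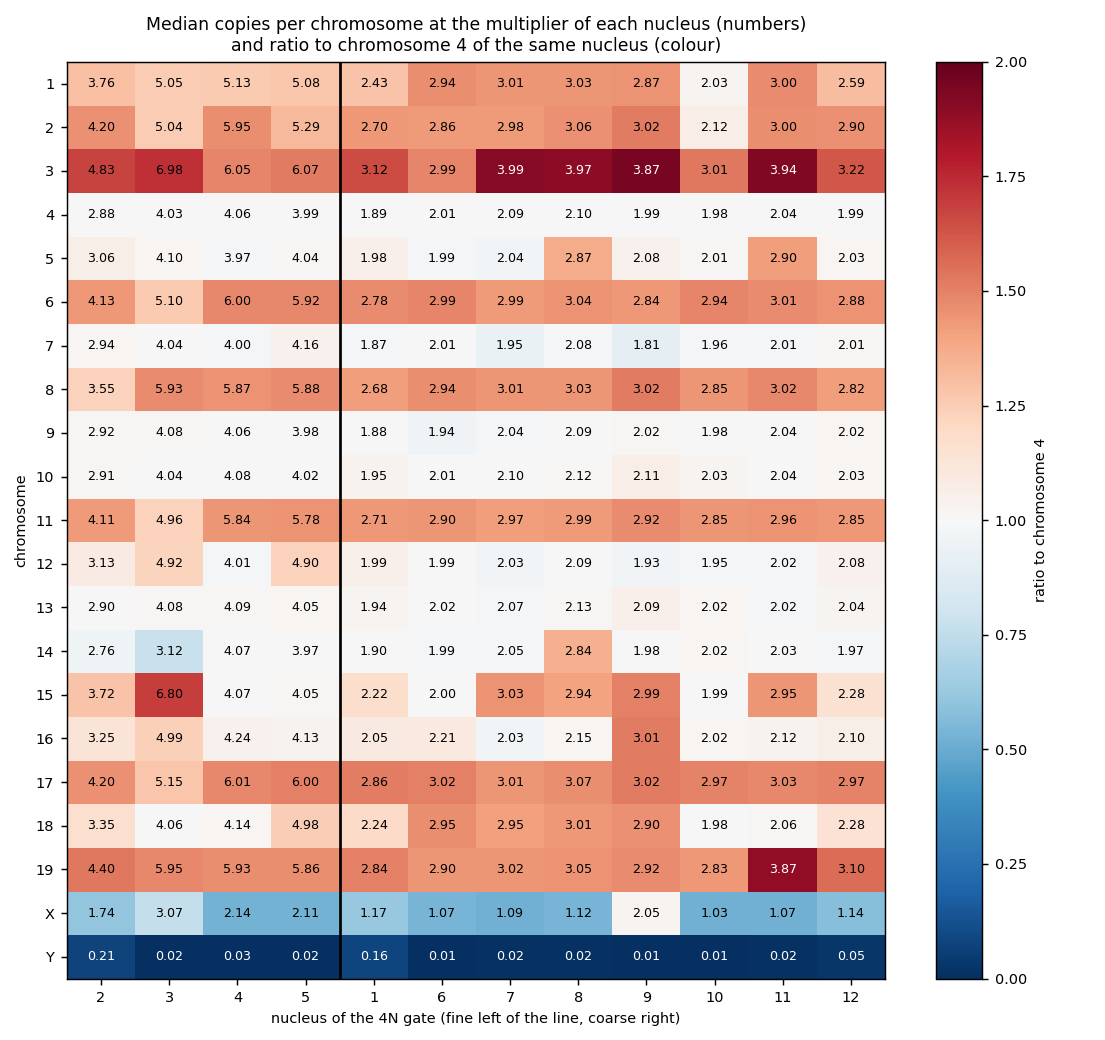
Median copies of chromosomes 1 to 19, X and Y (rows) in each of the 12 nuclei (columns, fine left of the line), printed at the multiplier of each nucleus, with colour for the ratio to chromosome 4 of the same nucleus. Chromosome 1 is at 5.05, 5.13 and 5.08 copies in nuclei 3, 4 and 5, and chromosome 3 is at or near 4 copies in coarse nuclei 7, 8, 9 and 11.

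Set against each other on the ratio to chromosome 4, the 4 fine and 8 coarse nuclei did not separate. Of 20 chromosomes compared (X and Y included), 0 had ranges that did not overlap, which is 0% of chromosomes in either direction, and of the 4636 autosomal bins likewise 0% were apart. Since the groups were chosen on these values, nothing is read from these counts. The medians of the groups differed by 0.1 or more for 5 chromosomes. Without nucleus 5 they did so for 2 and without nucleus 2 for 6. Without nucleus 4, chromosome 12 did not overlap, with ratios of 1.08 to 1.23 in nuclei 2, 3 and 5 and 0.972 to 1.05 in the coarse nuclei.

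Of these 5 chromosomes, 4 were lower by median in fine nuclei. The median ratio to chromosome 4 of chromosome 18 was 1.09 (range 1.01 to 1.25) in fine and 1.30 (1.00 to 1.47) in coarse nuclei. Chromosome 3 had 1.60 (1.49 to 1.73) and 1.77 (1.49 to 1.95). Chromosome 1 had 1.27 (1.25 to 1.30) and 1.44 (1.03 to 1.47), and chromosome 15 had 1.15 (1.00 to 1.69) and 1.29 (0.998 to 1.504). Chromosome 12 was higher by median in fine nuclei, at 1.15 (0.988 to 1.23) against 0.991 (0.972 to 1.05). Without nucleus 2 in the fine and nuclei 1 and 12 in the coarse group, the medians were 1.02 and 1.42 for chromosome 18, 1.52 and 1.90 for chromosome 3, 1.26 and 1.44 for chromosome 1, 1.01 and 1.42 for chromosome 15, and 1.22 and 0.987 for chromosome 12. Each of the 5 kept its direction. The medians of chromosomes 7, 9, 10 and 13 lay between 0.990 and 1.02 in both groups.

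Of the levels seen only among the coarse nuclei, some came from single nuclei and others from more. Nuclei 7, 8, 9 and 11 had 3.87 to 3.99 copies of chromosome 3, and the other 4 were near 3. Chromosome 5, home of the cell-cycle kinase gene Cdk6, was at 2.87 and 2.90 copies in nuclei 8 and 11 and near 2 in the other 6. Chromosome 19 was at 3.87 copies in nucleus 11, chromosome 16 at 3.01 in nucleus 9 and chromosome 14 at 2.84 in nucleus 8. Nucleus 10 was the only coarse nucleus with chromosomes 1 and 2 near 2, at 2.03 and 2.12. As ratios to chromosome 4, chromosome 1 was at 1.44 to 1.47 in nuclei 6, 7, 8, 9 and 11, and at most 1.30 in fine nuclei. Chromosome 18 was at 1.41 to 1.47 in nuclei 6, 7, 8 and 9, and at most 1.25 in fine nuclei. Chromosome 15 was at 1.40 to 1.504 in nuclei 7, 8, 9 and 11. Fine nuclei 2, 3, 4 and 5 had it at 1.29, 1.69, 1.00 and 1.01. Whether such states are less frequent among fine nuclei was not tested.

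The bins of chromosomes X and Y were not used by the search. Their copies are still the ratio times the searched multiplier, so a difference in copies between the groups follows from the grouping, and only the ratio to chromosome 4 is free of it. Chromosome X was at 1.74 copies in nucleus 2, 3.07 in nucleus 3, 2.14 in nucleus 4 and 2.11 in nucleus 5. An odd value was therefore seen for X in nucleus 3, which divided by 2 would be at 1.53, and an even one in nuclei 4 and 5, which would be at 1.07 and 1.05. The coarse nuclei ran from 1.03 through a median of 1.10 to 2.05 copies, and only nucleus 9 was near 2. The median of the fine nuclei was 2.12 copies, or 2.14 without nucleus 2, and that of the coarse nuclei without nuclei 1 and 12 was 1.08. As a ratio to chromosome 4, X was at 0.761 in nucleus 3 and between 0.527 and 0.605 in the other fine nuclei. In the coarse nuclei this ratio was 1.03 in nucleus 9 and 0.519 to 0.620 in the rest, and the groups overlapped. Adding X to the search left the number of fine nuclei at 4. Chromosome Y, covered by 3 bins, was at 0.207 copies in nucleus 2 and at 0.0161 to 0.0257 in the other fine nuclei.

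Steps inside chromosomes were also present on the finer scale. A region was named where a segment of at least 10 bins stood 0.75 copies or more from the median of its chromosome in at least 2 fine or 4 coarse nuclei. On the mm9 build, the inner part of chromosome 2, from 14885854 to 75743670, was low by this rule in fine nuclei 2, 4 and 5 and in coarse nuclei 6 and 8. It was at 3.24, 4.01 and 3.86 copies in these fine nuclei and at 5.82 in nucleus 3, above the chromosome median of 5.04. In nuclei 4 and 5 the medians of the chromosome were 5.95 and 5.29, so the step led down to about 4 copies. The limit of 0.75 copies is on each nucleus's own scale and is a smaller ratio in fine nuclei. As ratios to chromosome 4, nuclei 1 and 12, which were not counted, went from 1.43 to 1.09 and from 1.46 to 1.08, and nucleus 2, which was, from 1.45 to 1.12. In the 2N and 2N+ gates the same step was seen in 30 of 47 and 22 of 35 nuclei.

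The proximal part of chromosome 8, from 4163999 to 43640395, was low in nuclei 4 and 5, at 4.14 and 4.07 copies below a chromosome median near 6. It was not low in nucleus 3, at 5.93 copies, or nucleus 2, at 3.505. Coarse nuclei 6 and 10 had it at 2.05 and 2.00 copies, and among the other gates 26 of 47 (2N) and 2 of 35 (2N+) nuclei had the step. As ratios to chromosome 4, coarse nuclei 1 and 12, which were not counted, both went from 1.42 to 1.16. By the rule, both ends of chromosome 16 stood above its median in nuclei 4 and 5, and the proximal end also in nucleus 2. The proximal end, from 1 to 17206228, was at 4.07, 6.16 and 5.24 copies in nuclei 2, 4 and 5, and the distal end, from 89199935 on, at 5.89 and 5.39 in nuclei 4 and 5. The medians of the chromosome were 4.24 and 4.13 copies in nuclei 4 and 5. Coarse nuclei 6, 8 and 11 had both ends high, at 2.90 to 3.29 copies. The limit in copies is a smaller ratio in fine nuclei here as well. As ratios to chromosome 4, nuclei 1 and 12, which were not counted, rose from 1.09 and 1.06 to 1.33 and 1.36 at the proximal end. At the distal end they were at 1.38 and 1.31, and nucleus 2, not counted there, was at 1.34 over a median of 1.13. The proximal step was seen in 24 of 47 and the distal one in 22 of 47 nuclei sorted as 2N, and each in 4 of 35 sorted as 2N+. On chromosome 8, longer low segments of nuclei 3 and 4 shared a stretch of 5 bins, from 93365609 to 95672399, at 4.13 and 4.99 copies, while nucleus 5 was at 5.26. As ratios to chromosome 4 the stretch was at 1.02, 1.23 and 1.32 in nuclei 3, 4 and 5, and lower, at 0.838, 0.886 and 0.907, in coarse nuclei 7, 8 and 11. By the rule it was low in 5 of 47 nuclei sorted as 2N and 9 of 35 sorted as 2N+. Its median was 2.52 copies in the 2N and 2.54 in the 2N+ gate, and 73 of 82 nuclei had 3 copies of chromosome 8. The counts therefore leave out smaller dips and do not show that a dip here was rare. For this stretch too, the limit is a smaller ratio in fine nuclei. Nucleus 4, at 1.23, lay near coarse nuclei 6 and 12, at 1.27 and 1.26.

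The start of chromosome 5 was high in all 4 fine nuclei. The region from 5715258 to 14159645 was at 9.16, 13.4, 11.9 and 12.01 copies in nuclei 2, 3, 4 and 5. As a ratio to chromosome 4 these were 3.18, 3.33, 2.94 and 3.01, and on this scale they lay inside the range of 7 of the 8 coarse nuclei, at 2.92 to 4.12. Coarse nucleus 7 was the exception, with a ratio of 1.23 or 2.57 copies. All 47 and 35 nuclei of the other gates had the step.

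Further regions were chosen after their values were seen. Those on chromosomes 6, 8 and 11 set nucleus 3 apart from nuclei 4 and 5, and that on chromosome 1 set nucleus 5 apart. The distal part of chromosome 11, the chromosome of the tumour suppressor gene Trp53, from 95625099 on, was at 6.76 copies in nucleus 3 over a median of 4.96. Among the coarse nuclei it was high in 7, 8 and 11, at 3.82, 3.86 and 3.77 copies over medians near 3, and the step was seen in 2 of 47 and 1 of 35 nuclei of the other gates. The distal part of chromosome 8, from 93365609 on, was at 4.13 copies in nucleus 3 under a median of 5.93. It was at 2.09 and 2.17 in coarse nuclei 7 and 11, and the step was seen in 4 of 47 and 5 of 35 nuclei of the other gates. Nuclei 3, 7 and 11 thus shared both steps, and nucleus 8, at 2.30 copies of distal 8, was just short of the second. The distal part of chromosome 6, from 78585191 to 148528639, was at 4.22 copies in nucleus 3 and was low in none of the other 11 nuclei. In the other gates it was low in 1 of 47 and 0 of 35. The start of chromosome 1, from 3559438 to 14785728, was high in nucleus 5, at 9.59 copies. Among the coarse nuclei it was high in nucleus 10, at 5.78, and in nucleus 1, at 3.22, which is among those off whole copies. In the other gates the step was seen in 13 of 47 and 5 of 35 nuclei.

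**Figure D5:**
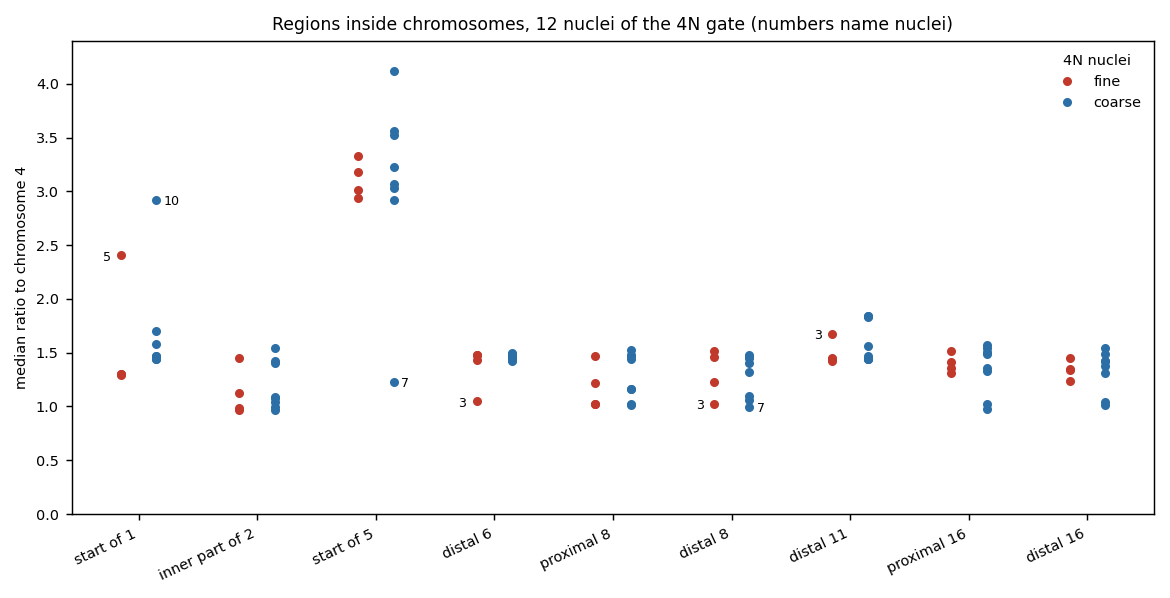
Median ratio to chromosome 4 (y axis) of 9 regions inside chromosomes (x axis) in fine (red) and coarse (blue) nuclei of the 4N gate, each dot 1 nucleus, with numbers that name single nuclei. The start of chromosome 5 is at 1.23 in nucleus 7 and at 2.92 to 4.12 in the other 11, and distal 6 is at 1.05 in nucleus 3.

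By median, the fine nuclei had fewer segment borders than the coarse ones. Breakpoints inside autosomes, counted as any change of value between neighbouring bins, numbered 10, 18, 20 and 26 in nuclei 2, 3, 4 and 5. The coarse nuclei ran from 22 through a median of 30.5 to 98, and the groups overlapped. The fine median was 19, or 20 without nucleus 2, and the coarse median without nuclei 1 and 12 was 48.5. Counting only steps of at least 0.5 copies, the medians were 15.5 and 17.5. This limit is on each nucleus's own scale and is a smaller ratio in fine nuclei, so it removes more steps from coarse ones. Without nucleus 2 in the fine and nuclei 1 and 12 in the coarse group, these medians were 17 and 29.5. Counting any change of value, only nuclei 7, 9 and 10 had more than 33, with 64, 98 and 75. For 47 single nuclei of the 2N gate the median was 18 with an SD of 7.27, and 3 of the 4 fine nuclei had 18 or more.

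Among the fine nuclei, nuclei 4 and 5 were alike and nucleus 3 stood apart from both. Over autosomal bins, which are not independent, the Pearson correlation of pairs had a median of 0.869 among the 6 fine pairs (0.638 to 0.931), 0.775 among the 28 coarse pairs (0.529 to 0.985) and 0.801 between the groups (0.547 to 0.975). Without nucleus 2 the 3 remaining fine pairs had a median of 0.649: nucleus 3 correlated at 0.638 and 0.649 with the others, while nuclei 4 and 5 correlated at 0.931. Without nucleus 3 the median was 0.927, and among the coarse nuclei without 1 and 12 it was 0.719. Nuclei 1, 2 and 12 correlated with each other at 0.974 to 0.985, the highest values among the 12. Nucleus 4 was most like coarse nucleus 12, at 0.964, and nucleus 5 most like coarse nucleus 1, at 0.948. Both values were above the 0.931 between nuclei 4 and 5. Against the other gates, nuclei 4 and 5 had a median correlation of 0.876 and 0.908 with 2N nuclei and 0.780 and 0.761 with 2N+ nuclei, and nucleus 3 had 0.604 and 0.75. By the number that ends each sample title, the fine nuclei held 86 to 89, side by side, and coarse nuclei 85 and 90 to 96. The titles do not say what this number stands for. The part of this order in the result was not tested.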

How the data were processed

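Per the labels' protocols, nuclei were amplified with the SeqXE kit before end repair, adapter ligation and PCR. The submitters' processing notes list Bowtie 1.0 and mm9. How bins, GC content, duplicates and segments were handled is not given in the sources used here. Per bin and library, the authors deposited 1 linear ratio, with library means from 0.994 to 1.09 and the same value over runs of neighbouring bins. Ratios carry no depth, so depth is unknown and no interval for it can be given.

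The table was split at white space. Copies are the ratio times the multiplier, and the value of a chromosome is the median over its bins. Positions are on mm9, counted from 1. The search was tested on simulated nuclei with whole copies, noise per chromosome and no steps inside chromosomes. Mixed profiles, and doubled genomes with a single odd autosome as in nucleus 4, were not simulated. The test therefore says nothing on such nuclei. The members, lists and regions were chosen with earlier results of these data known. All chromosomes are described, regions follow the rule given with them unless said otherwise, and genes are placed by chromosome only. Alternatives changed the search, the border at 3, the scaling of ratios, the bins kept and the nuclei kept. No test between groups was run. Values were computed in Python (version 3.11.15) with numpy (2.4.6) and pandas (2.3.3), intervals with scipy (1.17.1), and plots with matplotlib (3.10.9).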

Additional observations from a re-analysis of the deposited data

Results flagged for a closer look

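Of 52 sets of values checked for a sample far from the others of its group, 13 had one, and chance flags about 1 in 20 such sets. The sets are not independent, since they share nuclei. Multiplier and mean autosomal copies follow from the grouping rule. Chromosome ratios lie at steps, for which the rate of 1 in 20 need not hold, so nothing is read from the count of 13. Among the 4 fine nuclei, nucleus 2 was low in multiplier (3.45, others 4.65 to 4.70), in mean autosomal copies (3.55, others 4.83 to 4.89) and in the ratio of chromosome 8 to chromosome 4 (1.23, others 1.45 to 1.47), and high in the ratio of chromosome Y to chromosome 4 (0.0716, others 0.00401 to 0.00633). Nucleus 3 was far from the 2N bulk library (0.182, others 0.0654 to 0.0683) and low in chromosome 11 (1.23, others 1.42 to 1.45).

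Among the 8 coarse nuclei, nucleus 9 was high in chromosome X (1.03, others 0.519 to 0.620) and chromosome 16 (1.52, others 0.972 to 1.10), all as ratios to chromosome 4. Nucleus 10 was low in chromosome 1 (1.03, others 1.29 to 1.47) and chromosome 2 (1.07, others 1.42 to 1.52). Nucleus 1 was high in chromosome Y (0.0825, others 0.00435 to 0.0271), nucleus 8 in chromosome 14 (1.36, others 0.982 to 1.02) and nucleus 11 in chromosome 19 (1.89, others 1.43 to 1.56).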

How the results depend on the processing

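For 61 results, 257 values were computed under other settings. A shift within 1 SD of the nuclei, or within 1.5 times for counts, was found in 243, and a larger one in 14. In the fine group the SD rests on 4 nuclei and can be wide. Its median percent of bins at odd copies, 33.9, moved to 19.1 or 48.8 without single nuclei, within an SD of 24.9. The count of 243 is therefore no measure of stability. The number of fine nuclei was 2 (nuclei 3 and 5) in place of 4 with the mean absolute distance or without chromosome 1, an alternative chosen after seeing the data, as was leaving out nuclei 1 and 12. Limited to 2.0 to 3.0, the fine group had a median multiplier of 2.375, 2.46 mean autosomal copies and 1.16 copies of chromosome X, by construction. Leaving out each fine nucleus in turn, the chromosomes whose group medians differed by 0.1 numbered 2 to 6, those without overlap 0 to 1, and the median correlation within the group was 0.649 to 0.927. The cause of these moves was not tested. No paired analysis was possible because replicate numbers are names of nuclei and no model was fitted. Ratios carry no depth, so changes shorter than a segment, and doubled genomes with even copies only, could not be seen.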
